A study of Homo sapiens with 12 samples.

Results

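The net effect of 2 treatments given together was measured as the difference between AC16 cells that received both an siRNA labelled siEP300 and hydrogen peroxide (siEP300.H2O2, 3 libraries) and cells that received a control siRNA alone (siNC, 3 libraries). These 6 of the series' 12 RNA-seq libraries were chosen by the siRNA and H2O2 in their titles, and all genes were described: 13171 of the 17197 gene symbols passed a filter on low counts. The other 6 libraries, 3 with the EP300 siRNA alone (siEP300) and 3 with the control siRNA and H2O2 (siNC.H2O2), served to divide each net change into its 2 parts. AC16 is an established line derived from human ventricular cells fused with a fibroblast line. All groups share transfection in medium without serum. By the protocol, H2O2 followed 12 h after transfection for 1 h, at a dose the labels write as 200 mM, a unit that could not be checked, and RNA was taken after 48 h. The titles name EP300 as the siRNA target while a treatment field of the same samples names MLF1. The labels do not state that replicates are separate cultures, and the p-values then reflect the scatter of these libraries, which may be technical.

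EP300 encodes p300, a lysine acetyltransferase that acetylates histones H3 and H4 at enhancers and promoters and also acetylates transcription factors such as p53. CREBBP encodes its close relative CBP. Hydrogen peroxide oxidises thiols in proteins and damages DNA, and cells answer through p53 target genes, NRF2 antioxidant genes, immediate early genes and inflammatory genes. When a gene responds to both treatments, the responses can point the same way and add, or point in opposite ways and cancel.

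EP300 was 101, 69.1 and 80.1 CPM (counts scaled to the library total) in the siNC libraries and 30.1, 26.9 and 26.5 CPM in the siEP300.H2O2 libraries. It spans chr22:41091786-41180079 on the plus strand (GRCh38) and fell by 1.58 ± 0.14 (SE) on the log2 scale (edgeR adjusted p = 1.8e-07). MLF1, the other gene the labels name, went from 44.7, 48.4 and 49.3 to 41.5, 42.8 and 42.2 CPM, a log2 change of -0.17 ± 0.06 (edgeR adjusted p = 0.018). That call was lost in 5 of the alternative analyses. CREBBP rose from a mean of 103 to 130 CPM (log2 change 0.34 ± 0.09, edgeR adjusted p = 0.0036).

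Library totals ran from 16081437 to 19033679 counts, and no pair of replicates was identical. Replicate scatter was unequal. Chi-square per degree of freedom, which sets scatter against counting noise, was 3.63 to 16 between siNC pairs and 3.08 to 8.79 between siEP300.H2O2 pairs. It was 5.46 to 18.1 for siNC.H2O2 and 1.78 to 3 for siEP300, while the fit shared its estimate of spread across groups. Of 31 cardiomyocyte markers in the tables, 14 passed the filter. The sarcomere genes MYH6 and MYH7 and the oxygen carrier MB were at 0 in all 6 libraries, and TNNT2 and MYL7 did not exceed 0.156 and 0.104 CPM. Other members were expressed: mean CPM in siNC and siEP300.H2O2 was 4.07 and 6.15 for the sarcomere gene TTN, 12.1 and 8.58 for GATA4, 41.8 and 39.2 for NPPB and 457 and 624 for the calcium pump ATP2A2. Summed CPM of the endothelial list was 43.1 to 49.3 in siNC and 28 to 30.9 in siEP300.H2O2, and that of the leukocyte list was 48.0 to 58.9 and 75.5 to 88.6. The epithelial list summed to 401 to 443.6 and 473.5 to 550.6, the fibroblast list to 10925.5 to 11551.5 and 10490.1 to 10829.4, and the smooth muscle list to 1484.8 to 1549.8 and 2192.5 to 2433. These sums are weighted to the most abundant members and do not describe each list as a whole. In the leukocyte list CD68 rose from a mean of 31.3 to 72 CPM, while CD74 and CD14 fell. In the epithelial list KRT18 rose from a mean of 284 to 389 CPM, but 2 of 10 members tested were called higher and 4 lower. The part of these lists in the results below was not tested. In bulk RNA, fewer cells of a type and less RNA per cell cannot be told apart.

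Promoters of 4 genes with a large net change are shown, chosen after a motif search and after their values were seen, to let the motif be read in genes that rose and in one that fell. They are the 250 bases upstream of the start site (RefSeq, GRCh38.p14, 5′ to 3′). Capitals mark the AP-1 motif TGACTCA, read on either strand as TGACTCA or TGAGTCA, and the hypoxia response core ACGTG, read as ACGTG or CACGT. AP-1 is the dimer of FOS and JUN proteins. CXCL8 (chr4:73740319-73740568, plus strand), F3 (chr1:94541760-94542009, minus strand) and IL11 (chr19:55370464-55370713, minus strand) were higher in siEP300.H2O2, and CA9 (chr9:35673678-35673927, plus strand) was lower.
CXCL8: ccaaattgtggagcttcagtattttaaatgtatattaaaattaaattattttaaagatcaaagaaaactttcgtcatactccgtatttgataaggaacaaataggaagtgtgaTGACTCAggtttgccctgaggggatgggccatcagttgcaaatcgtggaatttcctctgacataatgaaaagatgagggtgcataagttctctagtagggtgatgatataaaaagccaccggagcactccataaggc
F3: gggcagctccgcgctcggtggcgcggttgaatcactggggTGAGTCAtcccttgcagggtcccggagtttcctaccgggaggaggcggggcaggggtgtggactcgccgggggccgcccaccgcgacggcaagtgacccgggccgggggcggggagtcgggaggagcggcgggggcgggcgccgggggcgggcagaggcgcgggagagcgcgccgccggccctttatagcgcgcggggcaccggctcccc
IL11: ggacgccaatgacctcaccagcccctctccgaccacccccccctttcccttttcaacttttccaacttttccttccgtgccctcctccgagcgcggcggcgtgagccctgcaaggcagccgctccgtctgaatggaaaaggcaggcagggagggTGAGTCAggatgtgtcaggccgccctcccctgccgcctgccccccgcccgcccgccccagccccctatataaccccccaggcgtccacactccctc
CA9: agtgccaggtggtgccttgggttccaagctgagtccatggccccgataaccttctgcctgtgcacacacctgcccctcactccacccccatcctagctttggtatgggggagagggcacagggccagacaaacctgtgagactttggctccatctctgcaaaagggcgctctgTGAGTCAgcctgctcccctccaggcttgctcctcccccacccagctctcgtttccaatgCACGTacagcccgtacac

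The AP-1 motif began 137, 210 and 96 bases before the start in CXCL8, F3 and IL11 and 77 bases before it in CA9, whose hypoxia core began 18 bases before the start. Of 35116 promoters of 300 bases, 4.95% held the AP-1 motif and 21.4% the hypoxia core. These matches are a description of letters. Promoters were matched for 100 of 136 genes named by rule, and 7 of them held the AP-1 motif: CXCL8, F3, IL11 and CD68, which rose, and CA9, CD14 and GJA1, which fell.

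Most of the genes tested were called different between the groups, the greater part of them by less than 2-fold. Of 13171 genes, 8559 (65.0%) differed between siEP300.H2O2 and siNC at an edgeR adjusted p under 0.05, with 4163 (31.6%) higher and 4396 (33.4%) lower. The median net change was -0.012 on the log2 scale. A net change of 2-fold or more was called in 1663 genes (12.6%), with 520 (3.95%) higher and 1143 (8.68%) lower. The 3 libraries of one group did not overlap the 3 of the other for 8856 genes (67.2%), with siEP300.H2O2 above in 4319 (32.8%) and below in 4537 (34.4%).

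The largest rises included genes of the matrix, of clotting and of inflammation. HAS2, the enzyme that makes hyaluronan, was 0.739, 0.833 and 0.53 CPM in siNC and 21.5, 20.8 and 25.6 CPM in siEP300.H2O2 (log2 change 5.0 ± 0.15, 31.9-fold, edgeR adjusted p = 3.1e-12). KRTAP2-3, a keratin-associated protein gene on chromosome 17, was 0.739, 0.417 and 0.689 CPM against 20.6, 29.7 and 32.6 CPM (log2 change 5.48 ± 0.23, edgeR adjusted p = 5.2e-11). For both genes the siNC level was under 1 CPM, so the size of the fold rests on few counts.

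SERPINB2, an inhibitor of plasminogen activators, rose from 8.66, 6.35 and 6.52 to 91.6, 113 and 114 CPM (14.8-fold). CCN2, a secreted matrix protein and a common readout of TGF-beta and YAP signalling, went from 72.4, 83.4 and 73.5 to 680, 770 and 855 CPM (10.1-fold, chr6:131948176-131951373). No library of one group reached the range of the other for any of these genes, by the way they were selected.

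GDF15, a stress-induced secreted factor of the TGF-beta family, rose 24.7-fold from 1.06, 1.72 and 1.86 to 30.7, 37.2 and 46.8 CPM. CXCL8, the neutrophil chemokine interleukin-8, was 0.633, 1.25 and 1.33 CPM in siNC and 16.3, 19.9 and 18.6 CPM in siEP300.H2O2 (17.0-fold). TGM2, the protein-crosslinking enzyme transglutaminase 2, rose 9.06-fold to a mean of 25.3 CPM, and the hair keratin gene KRT34 rose 9.45-fold to 10.3 CPM. LOC100653049 rose 12.2-fold to 9.69 CPM. All of the 10 largest rises except GDF15 were adding genes as defined below, while 8.66% of all genes added upward. Ranking by the net change favours genes whose parts share a sign. The EP300 siRNA part of GDF15 was 0.32 (edgeR adjusted p = 0.071) and its H2O2 part 4.31.

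The largest falls included complement, matrix and cell cycle inhibitor genes. ADAMTS15, a secreted protease that cleaves matrix proteoglycans, was 27.1, 26.5 and 30.3 CPM in siNC and 2.26, 1.77 and 1.54 CPM in siEP300.H2O2 (chr11:130448974-130476641, log2 change -3.90 ± 0.11, edgeR adjusted p = 2.5e-12). CA9, carbonic anhydrase IX and a classic hypoxia target, fell from 72.8, 89.0 and 74.4 to 6.4, 5.77 and 8.1 CPM (11.6-fold lower). CDKN1C, the cyclin-dependent kinase inhibitor p57, went from 13.1, 17.0 and 14.7 to 1.38, 1.2 and 1.6 CPM (10.7-fold lower). SMARCD3, a subunit of BAF chromatin remodelling complexes used in heart and muscle development, was 9.68-fold lower. COLEC12, a scavenger receptor, was 13-fold lower and VWA1, a matrix protein of basement membranes, 12.6-fold lower. RIPOR3 was 9.17-fold lower, from 14.7, 15.9 and 17.1 to 1.99, 1.43 and 1.76 CPM.

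Complement C4B fell from 43.8, 43.0 and 46.8 to 3.97, 2.57 and 2.32 CPM, and C4A from 32.8, 48.3 and 47.0 to 6.51, 4 and 6.23 CPM. ANXA8, a calcium-dependent membrane-binding protein gene, fell from a mean of 53.9 to 3.60 CPM and ANXA8L1 from 31.0 to 2.19 CPM. Each of these pairs is made of near-identical copies, so how the counting divided reads within a pair is uncertain, while both copies fell. All of the 10 largest falls except RIPOR3 were adding genes, while 8.99% of all genes added downward. Here too the ranking favours genes whose parts share a sign. The EP300 siRNA part of RIPOR3 was -3.17 and its H2O2 part -0.03 (edgeR adjusted p = 0.85).

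To see how each net change was made up, it was written as the sum of 2 averaged changes. The EP300 siRNA change is the mean of the change without and with H2O2, and the H2O2 change is the mean of the change under either siRNA. All 12 libraries enter both, and their sum is the net change by construction. The EP300 siRNA change was called in 9372 genes (71.2%), 4573 (34.7%) higher and 4799 (36.4%) lower. The H2O2 change was called in 6243 genes (47.4%), 3148 (23.9%) higher and 3095 (23.5%) lower. The EP300 siRNA change was the larger of the 2 in 8784 genes (66.7% of all tested).

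The plot of the 2 changes against each other shows every gene by these parts. Both were called with the same sign, and so added, in 2324 genes (17.6%): 1140 (8.66%) upward and 1184 (8.99%) downward. They were called with opposite signs, and so cancelled in whole or in part, in 2237 genes (17.0%): 1044 (7.93%) with the EP300 siRNA change up and 1193 (9.06%) with it down. The EP300 siRNA change alone was called in 4811 genes (36.5%), the H2O2 change alone in 1682 (12.8%) and neither in 2117 (16.1%). The split of adding genes into 1140 up and 1184 down depended on scaling: it was 818 and 1563 with upper quartile scaling, 763 and 1632 on FPKM with a pseudocount of 1, and 1647 and 1247 after a trend with gene length was removed. The cancelling split turned under the same settings, from 1044 and 1193 to 1237 with the EP300 siRNA change up and 1041 with it down, to 1197 and 1007, and to 1388 and 1255.

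**Figure D1:**
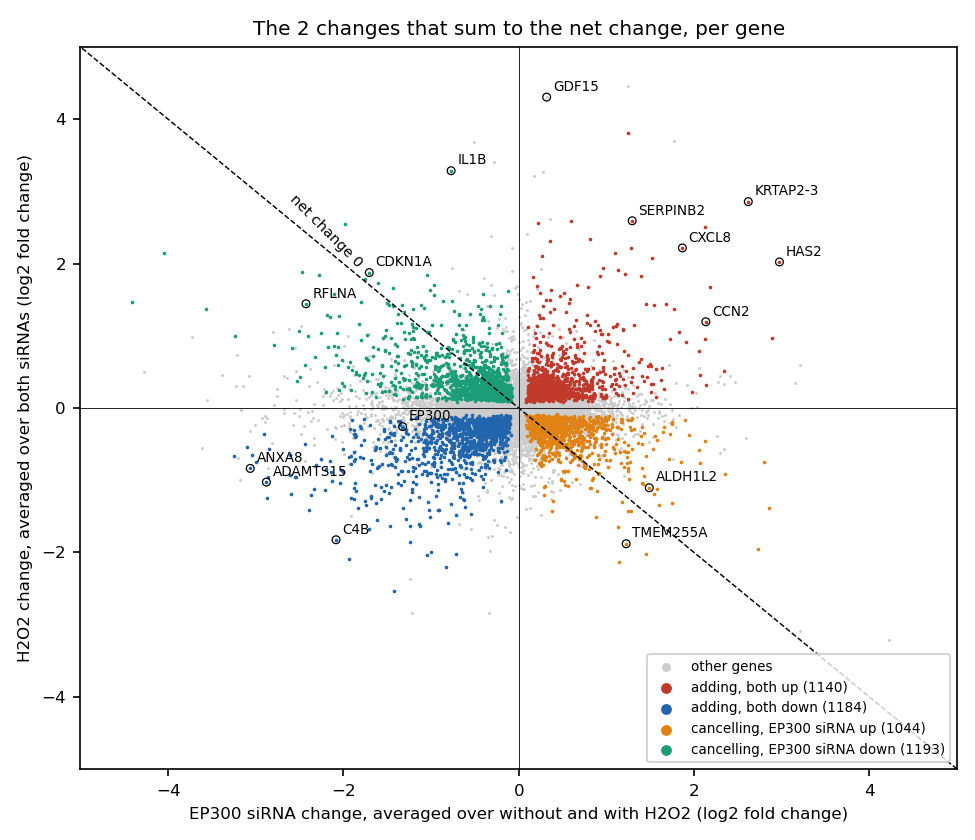
Each point is a gene, with the EP300 siRNA change averaged over both H2O2 states on the x axis and the H2O2 change averaged over both siRNAs on the y axis, both as log2 fold change. The dashed line marks a net change of 0, colours mark the 1140, 1184, 1044 and 1193 genes of the adding and cancelling classes, and 3 genes beyond 5 log2 units are not drawn.

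Among cancelling genes the net change was often not called. With the EP300 siRNA change up, 609 of 1044 (58.3%) had no net call, 363 were net higher and 72 net lower. With it down, 626 of 1193 (52.5%) had no net call, 433 were net lower and 134 net higher. A missing call does not show that levels were equal. Over each whole class, genes with a net call included, the 95% interval of the net change lay within 1.2-fold of no change for 292 and 330 genes. The median size of the 2 parts was 0.40 and 0.273 log2 units in the first class, and the median size of the net change 0.162. In the second it was 0.427 and 0.311, with 0.20 for the net.

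Adding genes supplied a large part of the strong net changes. Of the 520 genes at least 2-fold higher, 269 (51.7%) were adding genes, 161 (31.0%) had the EP300 siRNA change called alone and 53 (10.2%) the H2O2 change alone. Of the 1143 genes at least 2-fold lower, 520 (45.5%) were adding and 487 (42.6%) had the EP300 siRNA change called alone. The EP300 siRNA change was the larger part in 347 of the 520 (66.7%) and in 954 of the 1143 (83.5%). The median net change was 0.65 in the adding class that rose and -0.89 in the one that fell. These shares follow in part from the definition, since parts of the same sign sum to more.

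**Figure D2:**
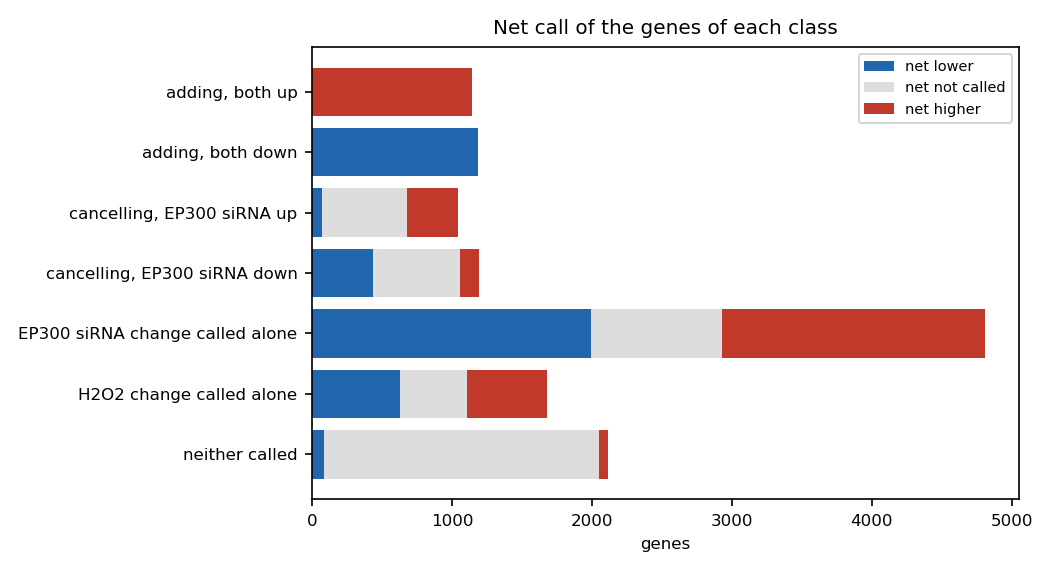
The bars count genes in each class, with the x axis in genes and the colours giving the net call of siEP300.H2O2 against siNC. The grey stretch is the genes with no net call, 609 and 626 genes in the 2 cancelling classes.

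Adding genes that rose formed a staircase over the 4 groups. HAS2 averaged 0.701 CPM in siNC, 7.23 with the EP300 siRNA, 3.73 with H2O2 and 22.6 with both, from an EP300 siRNA change of 2.97 and an H2O2 change of 2.02. KRTAP2-3 took similar sizes from each, 2.62 and 2.86. CXCL8 averaged 1.07, 3.52, 4.51 and 18.3 CPM in the same order, with changes of 1.87 and 2.22. F3, tissue factor and the trigger of blood clotting, was 41.6, 39.5 and 38.7 CPM in siNC, and 295, 298 and 297 CPM with both treatments (chr1:94529225-94541800, minus strand, log2 change 2.89 ± 0.06, edgeR adjusted p = 1.7e-13). Its 2 parts were 1.46 and 1.44. IGFBP5, which binds insulin-like growth factors, averaged 13.8, 45.3, 38.3 and 120 CPM. Every siEP300.H2O2 library was above every siNC library for these genes, by the way they were selected.

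Adding genes that fell ran the other way. HTRA1, a secreted serine protease, was 95.6, 115 and 111 CPM in siNC and 15.4, 11.9 and 13.5 CPM with both treatments, with means of 30.0 with the EP300 siRNA and 51.4 with H2O2. Its parts were -1.88 and -1.10. C4B took -2.08 and -1.82 from the 2 treatments. DCN, the collagen-binding proteoglycan decorin, was 87.7, 94.3 and 94.2 CPM in siNC and spread from 8.35 to 20.9 CPM with both treatments (log2 change -2.65 ± 0.20, edgeR adjusted p = 3e-08). PPL, the desmosome-associated protein periplakin, averaged 32.4, 12.5, 15.4 and 4.54 CPM, and C1QL4, a secreted C1q-like protein, 16.4, 5.76, 5.66 and 2.86 CPM. LUM, lumican, another collagen-binding proteoglycan, fell from 162, 176 and 165 to 45.6, 38.0 and 44.1 CPM, with parts of -0.92 and -1.06.

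CDKN1A had the largest smaller part of the cancelling genes with the EP300 siRNA change down. It encodes p21, the cell cycle inhibitor that p53 induces. It was 192, 208 and 198 CPM in siNC, 52.8, 55.6 and 51.7 with the EP300 siRNA, 577, 629 and 710 with H2O2, and 207, 217 and 250 with both. The H2O2 libraries stood highest, the EP300 siRNA libraries lowest, and the libraries with both treatments overlapped the control. The parts were -1.71 and 1.88, and the net change was 0.17 ± 0.08 (edgeR adjusted p = 0.071), a call gained in 4 of the alternative analyses.

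FAM20C, a kinase of secreted proteins, behaved alike with 44.9, 47.4 and 46.8 CPM in siNC and 41.8, 43.2 and 50.1 CPM with both treatments. Its group means were 17.9 CPM with the EP300 siRNA and 135 CPM with H2O2, the parts were -1.48 and 1.43, and the 95% interval of the net log2 change ran from -0.20 to 0.11. On FPKM a net fall was called, -0.22 with a pseudocount of 1 (limma adjusted p = 0.013). CEMIP, which degrades hyaluronan, averaged 133, 69.1, 594 and 156 CPM in siNC, siEP300, siNC.H2O2 and siEP300.H2O2, and a net rise was called without siNC replicate 1. TMEM158 averaged 13.9, 5.14, 52.2 and 15.3 CPM and CAMK1G, a calcium-dependent kinase, 4.52, 1.85, 18.0 and 3.62 CPM in the same order. A net fall of CAMK1G was called in 5 of the alternative analyses. RFLNA, a filamin-binding protein gene, was the exception among the 6: its parts of -2.43 and 1.44 left it lower, from 23.6, 28.6 and 26.6 to 11.2, 12.0 and 16.6 CPM (edgeR adjusted p = 1.1e-05).

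The 6 named cancelling genes with the EP300 siRNA change up included genes of amino acid and folate metabolism. ASNS, asparagine synthetase, was 74.6, 75.1 and 75.6 CPM in siNC and 93.9, 97.2 and 111 CPM with both treatments. Between them lay means of 205 CPM with the EP300 siRNA and 48.8 CPM with H2O2, and the net rise was 0.42 ± 0.06 on the log2 scale (edgeR adjusted p = 4.1e-05). ALDH1L2, a mitochondrial folate enzyme, averaged 25.8, 86.7, 14.4 and 33.6 CPM, a net change of 0.39 from parts of 1.49 and -1.10. SLC46A3, a lysosomal transporter, averaged 6.42, 16.2, 2.92 and 8.26 CPM, and TMEM45A 7.22, 19.7, 4.13 and 10.7 CPM. TMEM255A ended lower, from 6.81, 7.08 and 6.31 to 5.41, 4 and 3.42 CPM (edgeR adjusted p = 0.0016). TMEM143 had parts of 0.89 and -1.15 and a net change of -0.26 ± 0.12 with overlapping libraries (edgeR adjusted p = 0.064), called in 6 of the alternative analyses.

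**Figure D3:**
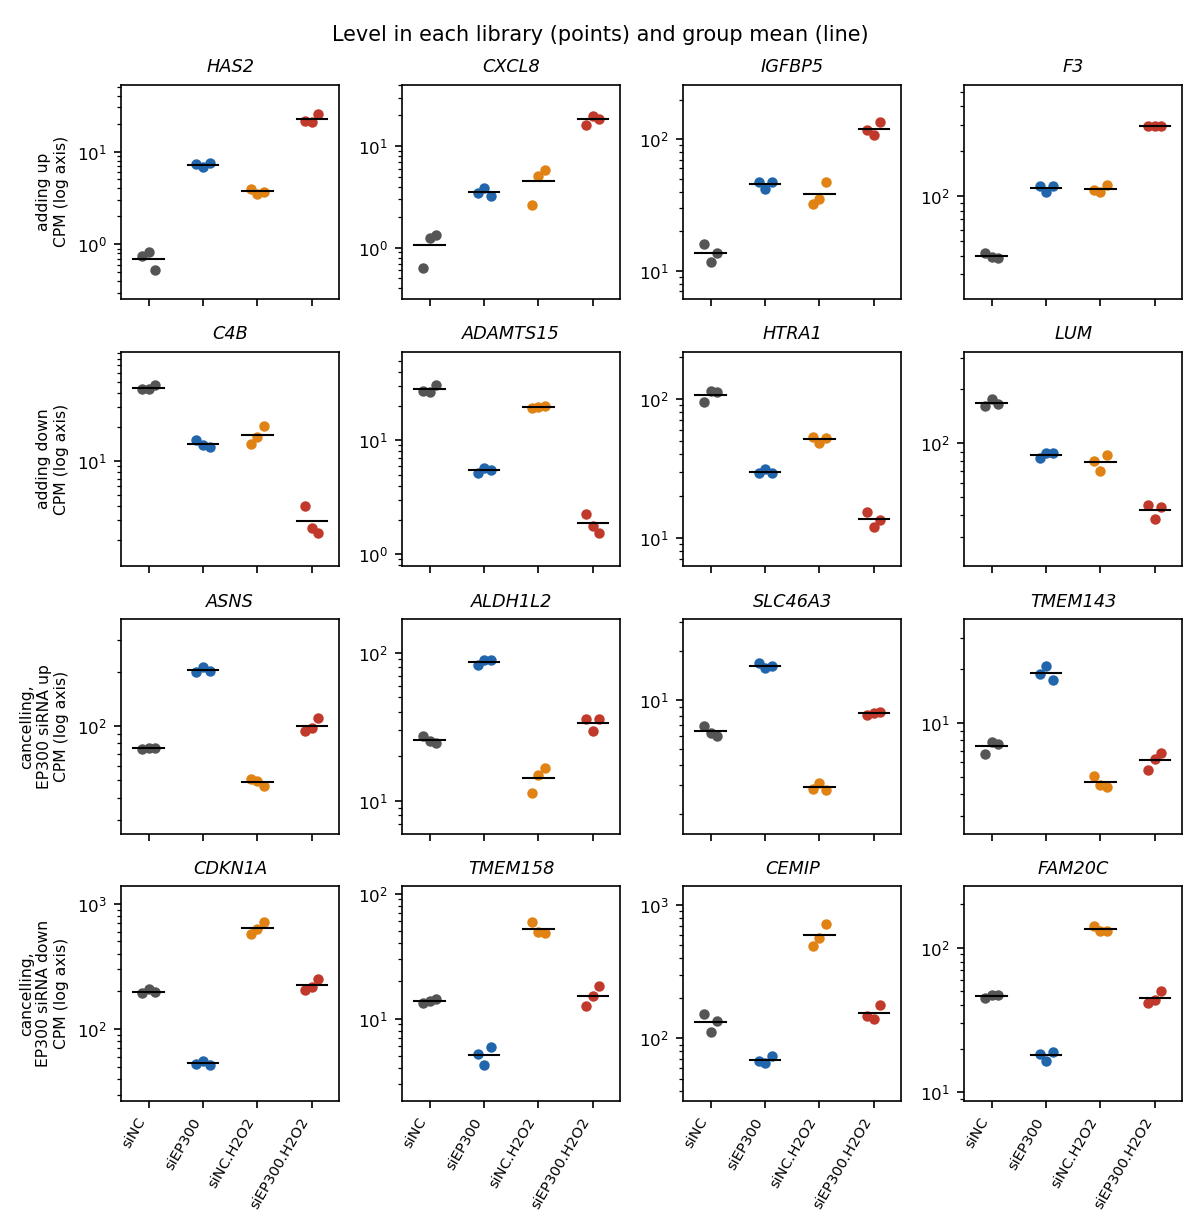
Points give CPM on a log axis in each of the 3 libraries of the 4 groups, with a line at the group mean, for 4 genes of each adding or cancelling class. In the upper rows siEP300.H2O2 is at the end of the range opposite siNC, and in the lower rows it lies near siNC with the 2 single treatments on either side. The genes were picked from classes that these same values define, so the pattern follows from the choice. The named cancelling genes RFLNA, CAMK1G, TMEM255A and TMEM45A are not drawn, and RFLNA and TMEM255A ended lower than siNC.

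Gene lists were then read against the shares over all genes, 31.6% higher and 33.4% lower, and against the median net change of -0.012. A list with shares near these does not stand apart from the other genes. Over all genes, 8.66% added upward, 8.99% added downward, 7.93% cancelled with the EP300 siRNA change up and 9.06% cancelled with it down. Members named beyond the 4 that each list contributes by smallest adjusted p were chosen after their values were seen.

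Immediate early genes, which encode transcription factors and phosphatases switched on within minutes of a stimulus, were higher in 28 of 29 members, with a median net change of 1.14. The other, JUND, was called lower, a call lost without siNC replicate 2, siNC replicate 3 or siEP300.H2O2 replicate 10, and JUND was not called lower once the length trend was removed. Of these, 18 were adding genes. DUSP5, a phosphatase of ERK, went from 18.3, 19.8 and 22.1 to 119, 142 and 145 CPM (6.73-fold), with parts of 0.93 and 1.82. DUSP6, another ERK phosphatase, rose from 11, 10.1 and 10.7 to 50.4, 56.6 and 56.9 CPM, mostly through H2O2 (0.26 and 2.10). EGR1, a zinc finger factor, rose from 52.5, 55.9 and 55.4 to 228, 254 and 265 CPM, mostly through the EP300 siRNA (1.97 and 0.22). IER3 took 0.51 and 1.59. FOS, which pairs with JUN in AP-1, was a cancelling gene that still rose, with parts of 1.94 and -0.37 and a net change of 1.58.

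Inflammatory cytokines and NF-kB feedback genes had the highest list median, 1.26. Of 28 members 22 rose and 5 fell, and 12 were adding genes. CD274, the immune checkpoint ligand PD-L1, was 10.1, 9.95 and 9.22 CPM in siNC and 72.7, 63.1 and 74.3 CPM with both treatments (log2 change 2.84 ± 0.08, edgeR adjusted p = 2.5e-12), with parts of 2.05 and 0.79. IL11, a fibrosis-linked cytokine, rose from 14.9, 17.2 and 16.1 to 74.2, 102 and 98.3 CPM, and the H2O2 part was 2.41 against 0.10. TNFAIP3, the NF-kB inhibitor A20, rose 2.89-fold. IL1B, interleukin-1 beta, was a cancelling gene: parts of -0.77 and 3.29 left it 5.72-fold higher, from 6.70, 9.11 and 7.63 to 40.9, 44.5 and 48.8 CPM. IL6 rose from 1.00, 1.61 and 1.38 to 7.89, 11.4 and 10.4 CPM with parts of 1.83 and 1.06. The 5 members that fell were VCAM1, PTGES, RELB, SOCS1 and SOCS3. With only genes of at least 5 CPM tested, 13 members rose.

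The p53 targets divided into adding and cancelling members. Of 27, 22 rose and 1, PLK2, fell, with a median of 0.63, and the median parts were 0.17 and 0.61. Adding genes numbered 12, and 7 were cancelling genes with the EP300 siRNA change down. MDM2, the ubiquitin ligase that degrades p53, rose from 72.5, 64.2 and 60.4 to 252, 234 and 226 CPM with parts of 0.35 and 1.5. AEN, an apoptosis-enhancing nuclease, rose 3.51-fold and BTG2, an antiproliferative gene, 4.07-fold. The 7 cancelling members were CDKN1A, SESN1, BBC3, BAX, GADD45A, PHLDA3 and FDXR, among which BAX had parts of -0.18 and 0.22 and a net change of 0.04.

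Heat shock proteins rose in 12 of 18 members and fell in 4 (median 0.41), with 6 adding upward. HSPD1, the mitochondrial chaperonin, went from 441, 480 and 452 to 1109, 1156 and 1149 CPM (2.48-fold), and HSPH1 rose 2.14-fold and HSP90AA1 2.03-fold. HSPA8, the constitutive HSP70, rose 1.52-fold. ER chaperones and ER stress genes rose in 17 of 25 and fell in 3 (median 0.23). ERO1A, the oxidase that supports disulfide formation in the ER, rose 1.96-fold with parts of 1.04 and -0.07, and HSPA5, the chaperone BiP, 1.48-fold with parts of 0.35 and 0.21. ATF6 and XBP1 rose 1.65-fold and 1.39-fold. On FPKM the count of members higher was 11.

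NRF2 antioxidant targets rose in 14 of 27 and fell in 8 (median 0.35), and the median parts were 0.44 for the EP300 siRNA and -0.01 for H2O2. NQO1, a quinone reductase, was 181, 202 and 191 CPM in siNC and 445, 467 and 482 CPM with both treatments, and the parts were 1.27 and 0.01. SQSTM1, the autophagy adaptor p62, rose 2.07-fold with parts of 0.56 and 0.49. AKR1C3, an aldo-keto reductase, fell from 35.5, 40.3 and 40.3 to 7.78, 6.57 and 8.66 CPM, and GSR, glutathione reductase, fell from 89.0, 92.2 and 89.7 to 48.1, 45.9 and 52.8 CPM. AKR1C family members are similar in sequence, so reads may have been divided among them. HMOX1, heme oxygenase 1, was 28.7, 32.7 and 31.2 CPM against 28.4, 32.0 and 31.6 CPM, with overlapping libraries.

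Of 29 ATF4 and amino acid response genes, 18 rose and 7 fell (median 0.37), and 9 were cancelling genes with the EP300 siRNA change up and the H2O2 change down. PSAT1, of serine synthesis, averaged 84.0, 325, 61.1 and 169 CPM in siNC, siEP300, siNC.H2O2 and siEP300.H2O2. PHGDH, the first enzyme of the same pathway, went the other way, from 248, 277 and 282 to 121, 129 and 144 CPM, with parts of -0.37 and -0.66. SESN2, a stress-induced inhibitor of mTORC1, rose 2.29-fold. The aminoacyl-tRNA synthetases, 20 of which were in the tables, rose in 13 and fell in 3 (median 0.28), among them KARS1 (1.87-fold higher), SARS1 (1.41-fold) and RARS1 (1.41-fold). GARS1 rose 1.34-fold.

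Cell cycle genes were read in separate lists. Of 38 DNA replication genes 9 rose and 14 fell (median -0.08), the H2O2 part was called lower in 25, and 12 were cancelling genes with the EP300 siRNA change up. MCM5, a subunit of the replicative helicase, fell from 288, 286 and 302 to 141, 156 and 149 CPM, and LIG1, the ligase of Okazaki fragments, from 148, 165 and 161 to 82.9, 93.9 and 90.8 CPM. MCM6 fell by 0.54 and RFC2 by 0.87 on the log2 scale. Of 30 mitosis genes 21 rose and 1, KIF2C, fell (median 0.34). HMMR rose from 116, 102 and 109 to 200, 194 and 197 CPM, CENPF 1.63-fold, BUB1 1.48-fold and CDK1 1.42-fold. The difference between the 2 lists was not tested.

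CDK inhibitors and G1 cyclins rose in 7 of 21 and fell in 10 (median -0.14). CCND1, cyclin D1, rose from 59.7, 53.1 and 49.7 to 338, 347 and 347 CPM (6.35-fold), with an H2O2 part of 2.31 and an EP300 siRNA part of 0.36. The inhibitors CDKN2B (p15) and CDKN1B (p27) fell from 32.4, 30.3 and 31.4 to 8.44, 9.20 and 8.21 CPM and from 183, 190 and 186 to 103, 97.3 and 100 CPM. With CDKN1C, 3 inhibitor genes thus lay below the control range while CDKN1A overlapped it. These 3 were named for their small adjusted p, and 34.4% of all genes had every siEP300.H2O2 library below every siNC library.

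Sterol synthesis and uptake genes fell: 16 of 24 were lower and 2 higher (median -0.30), and the H2O2 part was called lower in 21. SREBF2, the transcription factor that drives the pathway, fell from 380, 359 and 373 to 176, 169 and 181 CPM. DHCR7 and SREBF1 fell by 0.73 and 0.67 on the log2 scale. SREBF1 had parts of 0.02 and -0.69, and DHCR7 of -0.13 and -0.60, where the EP300 siRNA part averages 0.05 without and -0.32 with H2O2. Cancelling members numbered 7, all with the EP300 siRNA change up. INSIG1, the sterol sensor of the ER, was one, with parts of 0.51 and -0.89.

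Hypoxia and HIF targets rose in 8 of 26 and fell in 14 (median -0.27), with median parts of -0.27 for the EP300 siRNA and 0.02 for H2O2. NDRG1 fell from 98.0, 87.1 and 96.5 to 38.0, 37.5 and 41.7 CPM and BNIP3L, a mitophagy receptor, from 289, 271 and 259 to 132, 123 and 131 CPM. SLC2A3, the glucose transporter GLUT3, rose from 117, 104 and 109 to 277, 250 and 269 CPM. Glycolysis genes rose in 8 of 20 and fell in 9 (median -0.11), and 7 were cancelling genes with the EP300 siRNA change down. LDHA, lactate dehydrogenase A, fell from 1701, 1648 and 1749 to 880, 895 and 953 CPM with parts of -0.92 and 0.02, TPI1 fell by 0.60 on the log2 scale and ALDOC by 1.35. With upper quartile scaling the members called higher were 4 for hypoxia and 2 for glycolysis, and leaving out siNC replicate 3 or siEP300.H2O2 replicate 11 left 4 higher for hypoxia.

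Nuclear-encoded respiratory chain genes were higher in 10 of 35 members and lower in 6 (median 0.08), and 19 were not called. CYCS, cytochrome c, rose 2.20-fold with parts of 0.99 and 0.15, and ATP5PB and SDHB rose 1.51-fold and 1.55-fold. After the trend with gene length was removed, 21 members were higher and 2 lower, and leaving out siNC replicate 1 gave 10 lower and siEP300.H2O2 replicate 10 gave 2.

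Collagens fell in 10 of 21 members and rose in 8 (median -0.31). COL3A1 went from 816, 798 and 847 to 319, 254 and 300 CPM, mostly through H2O2 (parts of -0.21 and -1.29), and COL5A2 fell by 0.99 on the log2 scale. COL1A1 fell from 4914, 4404 and 4740 to 3077, 3219 and 3036 CPM. COL4A1, of basement membranes, rose from 193, 163 and 169 to 590, 560 and 595 CPM with parts of 1.5 and 0.23. Its EP300 siRNA change was 1.9 without and 1.11 with H2O2, so the H2O2 part of 0.23 averages unlike changes under the 2 siRNAs. Leaving out siNC replicate 2 left 5 collagens higher.

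Matrix proteases and their inhibitors rose in 17 of 32 and fell in 9 (median 0.30). MMP2, gelatinase A, fell from 175, 164 and 180 to 41.6, 36.7 and 45.7 CPM, nearly all through the EP300 siRNA (parts of -1.90 and -0.17). TIMP3, an inhibitor of such proteases, rose from 101, 83.6 and 91.5 to 208, 197 and 203 CPM (parts of 0.06 and 1.08, the first from changes of 0.37 without and -0.25 with H2O2). TGF-beta and YAP targets rose in 14 of 28 and fell in 6 (median 0.26). Their summed CPM was 3453.7 to 3729.8 in siNC and 8851.4 to 10029.9 with both treatments. The sum is weighted to the most abundant members and does not describe the list as a whole. ANKRD1, a YAP target, rose 8.22-fold, from 9.08, 7.92 and 9.01 to 68.3, 72.6 and 73.0 CPM. The named fibroblast markers fell: FBLN2 from 205, 215 and 225 to 77.7, 72.1 and 89.9 CPM and PDGFRB from 122, 103 and 115 to 50.1, 46.0 and 46.4 CPM, as did 10 of 17 members of that list, while 7 rose.

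Interferon-stimulated genes held 14 cancelling members of 33, the largest count of the 21 lists, which differ in size. The ATF4 list held 11 of 29 and the glycolysis list 8 of 20. Of the 33 interferon-stimulated genes, 12 rose, 6 fell and 15 had no net call (median 0.13). The EP300 siRNA part was called higher in 21 and the H2O2 part lower in 19, and 13 were cancelling genes of that kind. GBP1, an antiviral GTPase, rose 1.62-fold, from 67.6, 69.9 and 69.7 to 114, 116 and 106 CPM, with parts of 0.71 and -0.01. The RNA sensor DDX58 (RIG-I) rose 1.75-fold with parts of 0.46 and 0.34. SAMD9 rose 1.82-fold with parts of 1.13 and -0.27. IFI44 rose from 21.9, 20.8 and 20.9 to 30.4, 30.7 and 29.7 CPM with parts of 1.08 and -0.57. With upper quartile scaling or on FPKM, 10 members were lower.

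Autophagy and lysosome genes rose in 15 of 32 and fell in 7 (median 0.14). BECN1, beclin 1, rose 1.63-fold and LAMP1 1.51-fold, while NEU1, the lysosomal sialidase, fell from 125, 137 and 135 to 63.0, 74.9 and 71.6 CPM. Lysine acetyltransferases and deacetylases rose in 8 of 31 and fell in 12, including EP300 itself (median -0.08). HDAC9 rose from 11.8, 7.03 and 8.53 to 44.1, 38.6 and 35.1 CPM and HDAC1 from 140, 147 and 140 to 277, 276 and 286 CPM, with EP300 siRNA parts of 1.5 and 1.08. HDAC11 fell from 9.24, 10.3 and 9.75 to 2.92, 4.17 and 2.70 CPM. The count of members higher was 5 on FPKM and 13 after the length trend was removed.

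**Figure D4:**
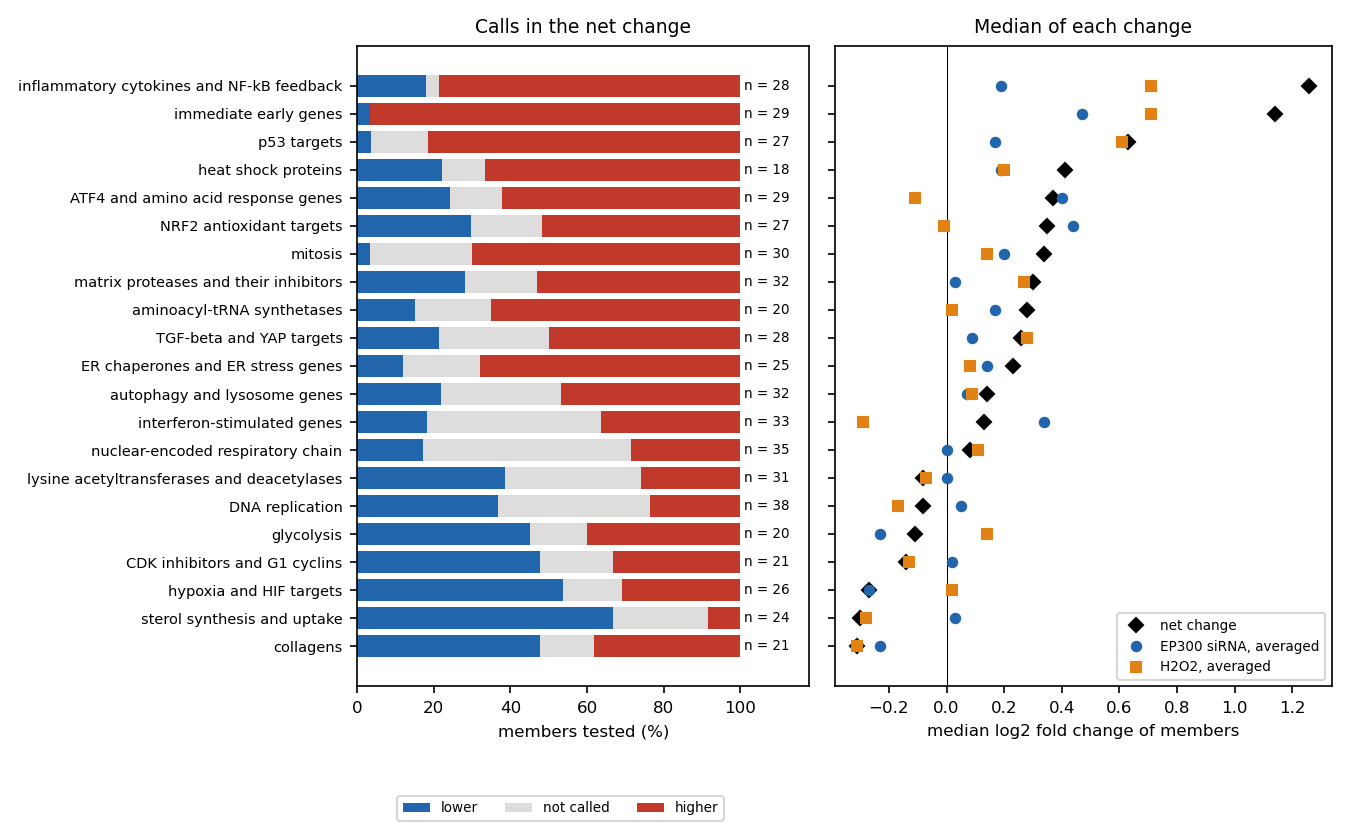
The left panel gives the percentage of tested members of 21 gene lists that were lower, not called or higher in siEP300.H2O2 against siNC, and the right panel the median log2 fold change of the net change and of its 2 parts. The inflammatory and immediate early lists have the highest net medians, 1.26 and 1.14, and the collagen and sterol lists the lowest, -0.31 and -0.30.

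Lists of other cell types moved both ways. Of 14 cardiomyocyte markers tested, 5 rose and 8 fell (median -0.48): GJA1, the gap junction protein connexin 43, fell from 222, 202 and 215 to 102, 88.8 and 96.2 CPM and GATA6 by 0.78 on the log2 scale, while TPM1 rose 1.63-fold. With only genes of at least 5 CPM tested, 3 cardiomyocyte markers rose and 4 fell, and with the length trend removed 2 rose. TNNI3, TNNC1, KCNJ2, MEF2C and HAND2 averaged under 1 CPM in siNC. Of 11 smooth muscle markers 7 rose and 3 fell (median 0.62). ACTA2, smooth muscle actin, rose from 2.69, 4.11 and 2.76 to 16.2, 19.5 and 17.0 CPM and TAGLN 2.18-fold, while CNN1, calponin, fell from 44.2, 45.2 and 45.5 to 15.9, 17.5 and 17.0 CPM. The epithelial list had 2 members higher and 4 lower of 10. With DESeq2 or with the length trend removed 2 of them were lower, and at 5 CPM or more 1 was higher and 1 lower. The endothelial list had 3 higher and 4 lower of 8. Its lower members were 2 without siNC replicate 3, with the 6 libraries alone or with the length trend removed, and 1 at 5 CPM or more. The leukocyte list had 1 higher and 2 lower of 4. CD68 was 2.30-fold higher, while CD74 fell from a mean of 13.8 to 7.1 CPM and CD14 from 7.22 to 3.4 CPM.

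The last comparison asked whether the net change equalled the sum of the 2 single treatments on the log2 scale. The net change differed from the sum of the siEP300 and siNC.H2O2 changes from siNC in 439 genes (3.33%), above it in 148 (1.12%) and below it in 291 (2.21%). On FPKM this balance turned, to 325 above and 229 below with a pseudocount of 1 and 265 and 195 with 0.1. A departure that was not called does not show that the changes summed exactly. DUSP6 was below: its EP300 siRNA change was 0.63 without H2O2 and -0.10 with it, a difference of -0.74 ± 0.11 (edgeR adjusted p = 0.0015). IL11 was above, with -0.29 without and 0.49 with H2O2 (difference 0.78 ± 0.16, edgeR adjusted p = 0.015). These counts moved by more than 1.5 times when 1 of several libraries was left out: without siNC replicate 1 they were 258 above, and without siNC.H2O2 replicate 7 they were 250 above and 459 below. Without any 1 of siNC replicates 2 and 3, the 3 siEP300 libraries, siNC.H2O2 replicate 8 or siEP300.H2O2 replicates 11 and 12, they fell to between 59 and 75 above and between 137 and 182 below.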

How the data were processed

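For 12 AC16 libraries the authors deposited estimated counts and FPKM, both by gene symbol. HISAT, Bowtie2 and the GRCh38.p13 build were used, per the submitters' processing notes. The sources used here do not give the counting program, strand setting or versions. From 12.0% to 13.8% of values per library were not whole, and estimated counts were rounded. Libraries were grouped by title. edgeR 4.0.16 (R 4.3.3) was run on all 12 libraries with TMM scaling, filterByExpr, 1 mean per group, the quasi-likelihood test and Benjamini-Hochberg adjustment over 13171 genes. A call is an adjusted p under 0.05. Levels are CPM from these fits. The biological coefficient of variation was 6.72%, and TMM factors ran from 0.969 to 1.05. Gene positions come from GENCODE on GRCh38. The code was tested on simulated data. Named genes are the targets, the 10 largest rises and falls and the 4 smallest adjusted p of each list. The rises and falls were taken among called genes with mean CPM of at least 5 and no overlap between the siNC and siEP300.H2O2 libraries. The 6 genes with the largest smaller part in each adding or cancelling class were also named. Pseudogene, antisense, readthrough and noncoding symbols are left out. The comparison, gene lists and rules were chosen with earlier results of these data known. Alternatives were DESeq2 1.42.0, other scalings and filters, the 6 libraries alone, FPKM with limma 3.58.1, removal of a trend with gene length (from the ratio of the deposited tables), other class definitions and leaving out each library. Some genes that these rules name are not reported here.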

Additional observations from a re-analysis of the deposited data

Results flagged for a closer look

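Of the 136 genes named by rule, 28 had an EP300 siRNA change that differed with and without H2O2 in edgeR, by the interaction term of the fit. Of these differences, 24 were below 0 and 4 above. Over all 13171 genes, 439 (3.33%) had such a call, 291 below 0 and 148 above. Most named genes were picked from these same data for large changes or small adjusted p, so the 2 shares cannot be compared. Values in parentheses are the change with H2O2 minus the change without it, in log2 units. Among matrix, clotting and surface genes these included ADAMTS15 (-1.03), COL4A1 (-0.79), COL1A1 (-0.40), TIMP3 (-0.61), CEMIP (-0.98) and PDGFRB (-0.62). COL1A1 was -0.03 without and -0.43 with H2O2, and TIMP3 was 0.37 and -0.25, so the averaged EP300 siRNA change of TIMP3, 0.06, hides values of opposite sign. In amino acid, stress and tRNA synthetase genes they were ASNS (-0.41), PSAT1 (-0.48), SESN2 (-0.61) and GARS1 (-0.43), each a rise that was smaller with H2O2. Cell cycle and signalling genes were CCND1 (-0.49), CDKN1B (-0.41), LIG1 (0.36), HMMR (-0.40), DUSP6 (-0.74) and CAMK1G (-1.03). DUSP6 went from 0.63 without to -0.10 with H2O2. Metabolic genes included CA9 (-0.73), SLC2A3 (-0.39), NDRG1 (-0.65), LDHA (-0.31) and DHCR7 (-0.37). Further genes were C4B (-0.88), TMEM143 (-0.96), ANKRD1 (0.47), IL11 (0.78) and HDAC1 (0.37). IL11 went from -0.29 to 0.49 and ANKRD1 from 0.90 to 1.36. The calls of C4B and LDHA were lost under 11 each of the alternative analyses, those of ANKRD1, ASNS, HDAC1 and LIG1 under 9 each, that of CA9 under 8, that of DHCR7 under 4, those of CAMK1G and SLC2A3 under 2 and those of ADAMTS15 and IL11 under 1.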

How the results depend on the processing

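No paired analysis was possible because the replicate numbers run on through the series and no number is shared between groups. The counts of genes higher and lower, 4163 and 4396, stayed within 1.5 times under every other tool, scaling, filter and library choice run, but their balance turned: 3444 and 5147 with upper quartile scaling, 3298 and 5153 on FPKM with a pseudocount of 1 and 4868 and 3956 with the length trend removed. No named gene's value changed its called direction. Restricted to changes of at least 2-fold, they were 520 and 1143, and these became 306 and 547 with a filter of at least 5 CPM and 209 and 530 on FPKM with a pseudocount of 1. Departures numbered 325 above and 229 below the sum, and 265 and 195, on FPKM with pseudocounts of 1 and 0.1, and 423 above and 693 below after the length trend was removed. Leaving out 1 library gave 59 to 258 departures above and 137 to 459 below, 3811 to 4329 net rises, 4090 to 4532 net falls, 529 to 578 rises and 1111 to 1208 falls of at least 2-fold, 990 to 1181 adding genes up, 1036 to 1269 down, 904 to 1186 cancelling genes with the EP300 siRNA up and 1018 to 1272 with it down. Classes from the 2 single treatments gave 557 and 682 cancelling genes. Taking H2O2 first and the EP300 siRNA after it gave 635 and 735 adding genes, and the opposite order gave 661 and 608 adding and 695 and 767 cancelling genes. Requiring 1.5-fold in each part left 80 and 215 adding and 79 and 161 cancelling genes. The cause of these shifts was not tested, except that stricter filters and fold limits leave fewer genes. For genes with a level under 1 CPM in siNC, counting limits the precision of the fold.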
